A study of Mus musculus with 18 samples.

Results

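Limd2, Pkdcc, Fmn2 and Cks1b were 4 of the 12394 genes measured on liver arrays of mice with and without the farnesoid X receptor (FXR, gene Nr1h4). They were selected on the arrays of vehicle-treated mice, as the largest named rises in livers lacking FXR over WT livers, so that rise is their definition and is given below as a description with no test. The arrays of the other groups were not used to select them, and there they could be tested. The question addressed here was whether the 4 genes were also higher when both genotypes received the FXR agonist GW4064, and when FXR was missing from the whole body and not from the liver alone. In the remaining 12 arrays none of the 4 passed the test, adjusted over all 12394 genes, as higher in either knockout. With GW4064, Pkdcc and Fmn2 were higher in liver knockout than in WT livers at an unadjusted p of 0.000568 and 0.000931 (limma). Fmn2 differed between the knockouts: with GW4064 it was 2.27-fold lower in whole-body knockout livers than in liver knockout livers.

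All mice were males on a C57BL/6J background, aged 10 to 16 weeks, dosed by oral gavage. There were 6 groups of 3 arrays: WT, liver FXR knockout (liver KO, labelled AFXR Cre+) and whole-body FXR knockout (whole-body KO), each with vehicle or with GW4064. The labels give 2 doses of GW4064 at 150 mg per kg and liver collection 2 hours after the last dose, whereas the methods, which describe the WT mice only, give a lower dose given more often. The sources used here do not name the promoter that drives Cre in the liver KO mice, do not say whether the WT mice were littermates of either knockout, and do not say whether an array is a single mouse, so the p-values measure only the spread between arrays labelled as separate samples. In a whole liver, fewer cells of a type and less RNA per cell cannot be told apart.

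FXR is a nuclear receptor for bile acids that is abundant in hepatocytes and in the intestine, where it represses bile acid synthesis and promotes bile acid export. Its best known DNA element, IR-1, holds a nuclear receptor hexamer and the mirror of that hexamer on the other strand, with a single base in the middle. The 4 genes are not classic FXR targets and belong to unrelated protein families. Limd2 encodes a small LIM domain protein reported to bind integrin-linked kinase. Pkdcc encodes a secreted tyrosine kinase that phosphorylates extracellular proteins and is known from bone and cartilage development. Fmn2 encodes a formin, which nucleates straight actin filaments, and is known from the positioning of the meiotic spindle in oocytes. Cks1b encodes a small subunit of cyclin-dependent kinases that is also needed by the SKP2 ubiquitin ligase to recognise the cell cycle inhibitor p27.

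The sequences upstream of the 4 genes are shown because FXR acts through DNA sites and these genes were grouped by their response to its loss. Each is the 250 bases before the start of the gene in RefSeq (GRCm38.p6), read 5′ to 3′ on the strand of the gene, with matches to AGGTCA (the hexamer of nuclear receptor sites) or CCAAT, on either strand, in capitals. Limd2 has 3 starts in the table, and the first listed is printed.
Limd2 (chr11:106160730-106160979, minus strand): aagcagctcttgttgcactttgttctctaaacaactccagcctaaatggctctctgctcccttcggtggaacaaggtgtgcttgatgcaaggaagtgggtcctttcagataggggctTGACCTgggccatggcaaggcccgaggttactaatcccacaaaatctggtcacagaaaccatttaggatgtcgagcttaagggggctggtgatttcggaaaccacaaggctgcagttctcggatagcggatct
Pkdcc (chr17:83215033-83215282, plus strand): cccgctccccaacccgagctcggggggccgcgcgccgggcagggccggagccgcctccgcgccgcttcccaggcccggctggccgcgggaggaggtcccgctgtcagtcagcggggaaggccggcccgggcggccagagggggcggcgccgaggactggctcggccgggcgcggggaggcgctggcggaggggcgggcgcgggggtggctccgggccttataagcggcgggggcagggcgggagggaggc
Fmn2 (chr1:174501575-174501824, plus strand): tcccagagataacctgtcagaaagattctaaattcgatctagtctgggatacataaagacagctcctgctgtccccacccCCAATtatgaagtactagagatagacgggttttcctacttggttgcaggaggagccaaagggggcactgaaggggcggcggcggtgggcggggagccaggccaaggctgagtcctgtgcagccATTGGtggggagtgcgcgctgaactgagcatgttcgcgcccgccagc
Cks1b (chr3:89418292-89418541, minus strand): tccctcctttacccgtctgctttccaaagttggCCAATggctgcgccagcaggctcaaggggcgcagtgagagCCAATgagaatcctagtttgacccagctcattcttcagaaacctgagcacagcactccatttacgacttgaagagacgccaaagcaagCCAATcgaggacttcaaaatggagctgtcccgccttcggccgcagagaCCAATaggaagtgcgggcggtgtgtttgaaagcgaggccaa
The letters of AGGTCA were found once upstream of Limd2 on the reverse strand, and not in the windows of Pkdcc, Fmn2 or Cks1b. Of 32851 windows of this length in the table, 14.0% held the hexamer. The IR-1 of that hexamer was in none of the 4 windows and in 0.00609% of all windows. CCAAT was present 4 times upstream of Cks1b and 2 times upstream of Fmn2, and 33.8% of all windows held it. The other starts of Limd2 had no AGGTCA, and CCAAT was in 1 of them. These are matches of letters and not sites of binding, which was not measured in these livers.

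The genotype labels were checked with Nr1h4. Its level, as for every value here log2 expression after RMA normalization, ran from 8.83 to 9.39 in the 6 WT arrays and from 3.98 to 4.69 in the 12 knockout arrays. Array medians lay between 5.96 and 6.00. WT GW4064 replicate 1 stood apart, with the widest interquartile range of relative expression (0.255), as did whole-body KO GW4064 replicate 3, with 0.224. WT GW4064 replicate 3 and whole-body KO GW4064 replicate 2 correlated more highly with other groups (0.993 and 0.994) than with their own (0.992 each). Differences between genotypes with GW4064 are also given without the first and second of these 4 arrays.

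With vehicle, Limd2 measured 8.97, 8.65 and 7.99 in WT, against 9.75, 9.86 and 9.80 in liver KO. In whole-body KO with vehicle it measured 9.81, 9.65 and 9.86. All arrays of both knockouts were above all WT arrays, and the knockouts covered the same range. The WT arrays were the scattered group (SD 0.50), while liver KO with vehicle had an SD of 0.06. With GW4064, Limd2 measured 9.05, 9.61 and 9.31 in WT, 9.65, 9.61 and 9.83 in liver KO, and 9.64, 9.56 and 10.04 in whole-body KO. Here the lowest knockout arrays lay next to the highest WT array, since WT arrays were 0.78 higher on the log2 scale with GW4064 than with vehicle. In order of means, Limd2 was lowest in WT with vehicle, next in WT with GW4064, and the 4 knockout groups above them overlapped each other.

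Pkdcc showed its highest levels in liver KO. With vehicle it measured 7.08, 6.29 and 6.92 in WT, 8.21, 8.20 and 7.58 in liver KO, and 7.36, 7.31 and 7.19 in whole-body KO. Whole-body KO arrays were therefore between the other groups and overlapped neither. With GW4064 it measured 6.77, 7.33 and 6.97 in WT, 7.77, 7.99 and 7.42 in liver KO, and 7.31, 7.41 and 7.52 in whole-body KO. Liver KO stayed above WT without overlap, but now shared its range with whole-body KO, whose highest array exceeded the lowest liver KO array.

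Fmn2, the formin, separated the 2 knockouts. With vehicle it measured 5.10, 4.74 and 4.93 in WT and 6.33, 5.75 and 6.24 in liver KO. In whole-body KO with vehicle it measured 4.84, 4.39 and 4.30, so 2 of 3 arrays were below every WT array. With GW4064 the values were 5.12, 5.03 and 5.08 in WT, 5.82, 5.60 and 5.69 in liver KO, and 4.62, 4.71 and 4.24 in whole-body KO. Under both treatments the liver KO arrays were the highest, and with GW4064 the 3 genotypes did not overlap. The probe set of Fmn2 is dim: its mean over all arrays is at percentile 37.6 of the probe sets, and no detection call comes with the values.

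Cks1b, the kinase subunit, was lowest in WT with vehicle, at 8.56, 8.39 and 8.72, and highest in liver KO with vehicle, at 9.45, 9.87 and 9.37. In whole-body KO with vehicle it measured 9.20, 8.85 and 9.31, below every liver KO array and above every WT array. With GW4064 the values were 9.03, 8.59 and 9.32 in WT, 9.03, 9.20 and 9.11 in liver KO, and 9.26, 8.95 and 9.53 in whole-body KO, and these 3 groups overlapped.

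**Figure D1:**
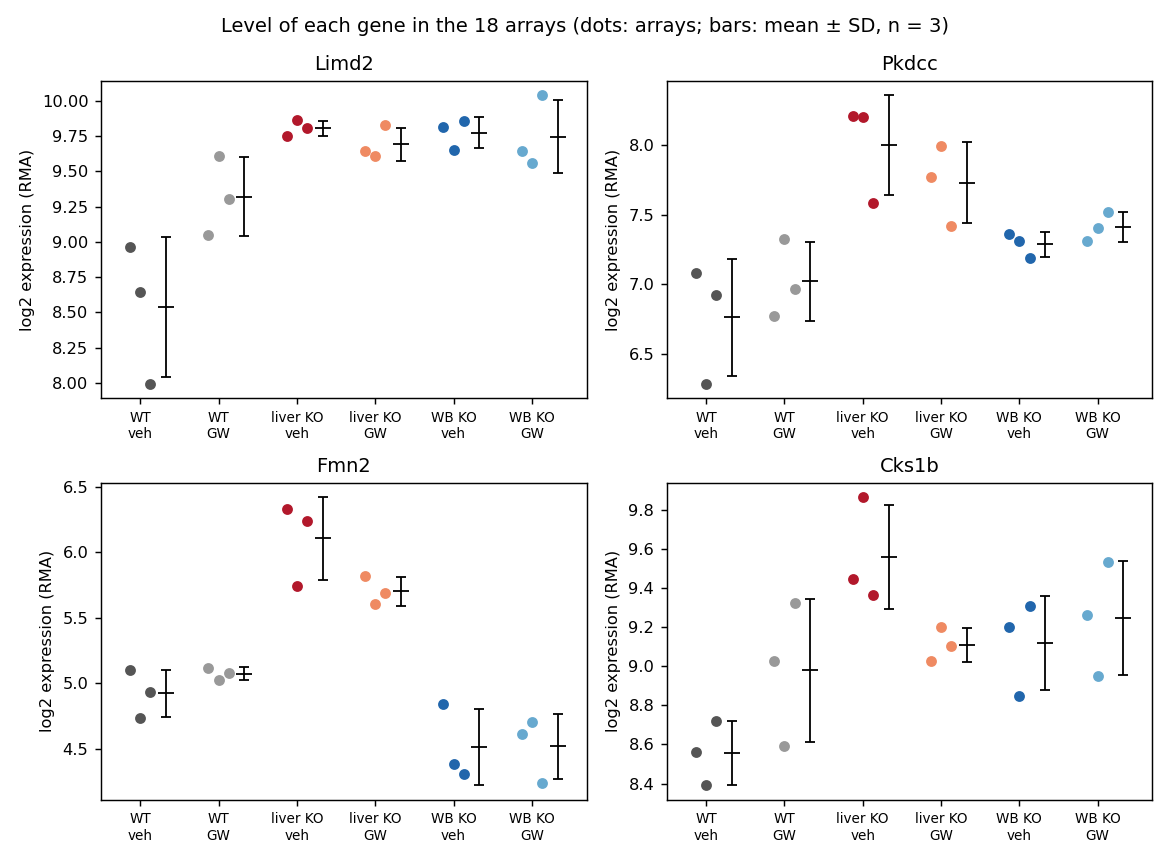
Log2 expression (RMA) of Limd2, Pkdcc, Fmn2 and Cks1b on the y axis, in the 6 groups on the x axis (veh, vehicle; GW, GW4064; WB KO, whole-body KO); dots are arrays and bars the mean ± SD (n = 3). The y axes differ between genes and do not start at 0. Limd2 was high in all 4 knockout groups, Pkdcc highest in liver KO, Fmn2 high in liver KO and low in whole-body KO, and Cks1b highest in liver KO with vehicle.

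The mean differences that chose the genes, liver KO minus WT with vehicle, were 1.27 for Limd2, 1.23 for Pkdcc, 1.18 for Fmn2 and 1.0 for Cks1b on the log2 scale, which is 2.41-, 2.34-, 2.27- and 2.0-fold. In that comparison 48 of 12394 genes (0.387%) passed an adjusted p of 0.05 as higher. Just outside the 4, the next genes by size were Gstt2 at 0.94, Plscr1 at 0.89 and Fam126b at 0.89. Whole-body KO minus WT with vehicle, which shares the WT arrays, was 1.24 for Limd2, 0.52 for Pkdcc, 0.56 for Cks1b and -0.41 for Fmn2. That of Pkdcc was 0.28 without WT vehicle replicate 2, the lowest WT array. All 3 whole-body KO arrays were above all WT arrays for Limd2, Pkdcc and Cks1b, a separation shown by 9.63% of all genes. Fmn2 showed no such separation upward. Liver KO arrays were all above whole-body KO arrays with vehicle for Pkdcc, Fmn2 and Cks1b, against 10.4% of all genes, and these differences also contain arrays that chose the genes.

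The first test asked whether the 4 genes were higher in liver KO than in WT when both received GW4064. With limma on the 12 arrays that did not choose them, 0 of 4 passed an adjusted p of 0.05, and 3 of 4 had an unadjusted p under 0.05; the methods' t-test also called 0, with 2 under 0.05 unadjusted. Of all genes 0.178% passed as higher and 0.605% in either direction. An unadjusted p under 0.05 was seen for 1504 of 12394 genes in limma and 1124 in the methods' t-test. Pkdcc was 1.63-fold higher (log2 0.71 ± 0.15, SE; limma, adjusted p = 0.0718), with all liver KO arrays above all WT arrays. Fmn2 was 1.55-fold higher (log2 0.63 ± 0.15, SE; limma, adjusted p = 0.0895), again without overlap. Such separation upward was seen in 8.63% of all genes. Limd2 differed by 0.37 (limma, adjusted p = 0.336) with 2 of 3 liver KO arrays above all WT arrays, and Cks1b by 0.13 (limma, adjusted p = 0.841). Without the 2 arrays that stood apart the differences were 0.24 for Limd2, 0.58 for Pkdcc, 0.65 for Fmn2 and 0.15 for Cks1b. The 95% interval was 0.37 to 1.04 for Pkdcc, 0.31 to 0.95 for Fmn2, 0.05 to 0.70 for Limd2 and -0.27 to 0.54 for Cks1b. Calls near the threshold moved with the arrays in the fit. Pkdcc passed in 2 of 24 alternatives, without WT GW4064 replicate 2 (limma, adjusted p = 0.0373) or without liver KO GW4064 replicate 3 (0.0407). Its highest adjusted p was 0.526, by the methods' t-test. Fmn2 passed in 3 of 23, on the compared groups only (limma, 0.0378), without whole-body KO vehicle replicate 1 (0.0485) and without whole-body KO GW4064 replicate 3 (0.0363). Its highest was 0.280, by limma without liver KO GW4064 replicate 1.

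The same was asked of whole-body KO against WT, both with GW4064. None of the 4 passed the adjusted test in limma, 3 had an unadjusted p under 0.05, and the methods' t-test called 0 with 1 unadjusted. In this comparison 1.69% of all genes passed as higher and 2.86% in either direction, and 2094 of 12394 genes had an unadjusted p under 0.05 (1365 by the methods' t-test). Limd2 was 1.34-fold higher (log2 0.43 ± 0.15, SE; limma, adjusted p = 0.166) and Pkdcc 1.31-fold higher (log2 0.39 ± 0.15, SE; limma, adjusted p = 0.217). Without the 2 arrays that stood apart, the differences were 0.14 for Limd2, 0.21 for Pkdcc, 0.15 for Cks1b and -0.39 for Fmn2. Fmn2 pointed the other way, 1.47-fold lower in whole-body KO (log2 -0.55 ± 0.15, SE; limma, adjusted p = 0.0657), with all 3 arrays below all WT arrays. It passed in 2 of 23 alternatives, among them the fit without whole-body KO vehicle replicate 1 (limma, adjusted p = 0.0333). Its highest adjusted p was 0.384, by the methods' t-test. Cks1b differed by 0.27 (limma, adjusted p = 0.509; 95% interval -0.14 to 0.67). None of the 4 had all whole-body KO arrays above all WT arrays, a pattern of 8.40% of all genes.

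The knockouts were then set against each other under GW4064, which tests directly whether a member differs between these 2 kinds of knockout mice. The site of FXR loss cannot be told apart here from any other difference between them. Fmn2 was lower in whole-body KO, by 1.18 ± 0.15 (SE) on the log2 scale or 2.27-fold (95% interval of the log2 difference -1.50 to -0.87; limma, adjusted p = 0.00481), and 3 of 3 arrays were below all liver KO arrays. Of all genes, 0.888% passed in either direction, and 10.3% had all liver KO arrays above all whole-body KO arrays. Without the 2 arrays that stood apart the difference was -1.04 (limma, adjusted p = 0.0108). Leaving out any single array of the fit kept it past the threshold, whereas the methods' t-test, which called 0 genes of 12394 after adjustment (1248 unadjusted), gave Fmn2 an adjusted p of 0.401. Pkdcc was 1.24-fold lower in whole-body KO (log2 -0.32 ± 0.15, SE; limma, adjusted p = 0.406; 95% interval -0.65 to 0.02), and -0.37 without the 2 arrays. Limd2 differed by 0.05 (95% interval -0.27 to 0.38) and Cks1b by 0.14 (95% interval -0.27 to 0.54), with limma adjusted p of 0.923 and 0.814. For both, the sign turned without whole-body KO GW4064 replicate 3, to -0.09 and -0.005.

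In mice without FXR anywhere, GW4064 against vehicle gave log2 differences from -0.03 for Limd2 to 0.13 for Cks1b, and the 95% intervals reached no further than -0.35 and 0.53. None passed in limma, none had an unadjusted p under 0.05, and 0 of 12394 genes (0%) passed, with 616 at an unadjusted p under 0.05 (521 by the methods' t-test). The differences with GW4064 in the other genotypes contain arrays that chose the genes and are given without a test. In WT they were 0.78 for Limd2, 0.42 for Cks1b, 0.26 for Pkdcc and 0.15 for Fmn2, all upward. In liver KO all were downward, at -0.11 for Limd2, -0.27 for Pkdcc, -0.40 for Fmn2 and -0.45 for Cks1b. GW4064 and vehicle arrays did not overlap for Limd2 in WT or for Cks1b in liver KO, and overlapped otherwise. The share of all genes separated in this way was not counted for WT or liver KO, so these separations only describe the arrays.

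**Figure D2:**
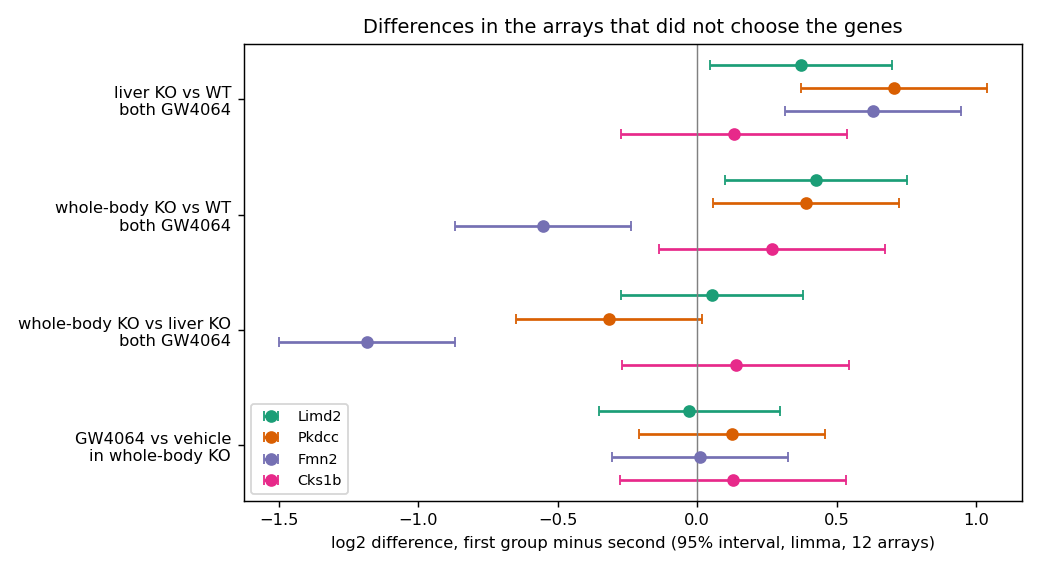
Log2 difference of each gene on the x axis (first group minus second, with 95% interval from limma on 12 arrays) in the 4 comparisons listed on the y axis, coloured by gene. The interval of Fmn2 lies below 0 in both comparisons of whole-body KO with GW4064, at -0.55 against WT and -1.18 against liver KO, and the 4 intervals of GW4064 in whole-body KO include 0.

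The platform holds 10 probe sets for the 4 genes, and the brightest stood for each gene above. By the naming of the platform, the suffix of the probe set used for Limd2 (x) marks probes that may also match other transcripts, and that of both Pkdcc probe sets (s) marks probes shared by several transcripts. The second probe set of Limd2 (1429104_at) was also higher than WT with vehicle, by 0.61 in liver KO and 0.54 in whole-body KO, while the dimmest (1460738_at) differed by 0.11 and 0.14. The second probe set of Pkdcc (1460411_s_at) was 0.30 higher in liver KO and 0.18 lower (-0.18) in whole-body KO than in WT with vehicle, so the intermediate level of Pkdcc in whole-body KO was seen with 1 of its 2 probe sets. Cks1b was higher than WT in both knockouts with vehicle by its second probe set as well (1448441_at, 0.56 and 0.37). In liver KO against WT with GW4064, these second probe sets differed by 0.25 for Pkdcc, 0.08 for Limd2 and 0.02 for Cks1b. None passed when all probe sets were tested (limma, adjusted p = 0.425, 0.901 and 0.980), and the Pkdcc arrays overlapped. In whole-body KO against WT with GW4064 the differences were 0.07, 0.21 and 0.24 (limma, adjusted p = 0.820, 0.576 and 0.577).

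For Fmn2 the second probe set (1450064_at) measured 3.94, 4.24 and 4.31 in liver KO with GW4064 and 3.32, 3.67 and 3.50 in whole-body KO with GW4064. These did not overlap, and the difference of -0.66 ± 0.13 (SE) passed when all probe sets were tested (limma, adjusted p = 0.0374). Against WT with GW4064, this probe set differed by 0.45 in liver KO and -0.21 in whole-body KO (limma, adjusted p = 0.167 and 0.447). It lies at percentile 9.81 of all probe sets by mean level. The dimmest probe set of Fmn2 (1431725_at), at percentile 2.76, differed by 0.12 (limma, adjusted p = 0.633).

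**Figure D3:**
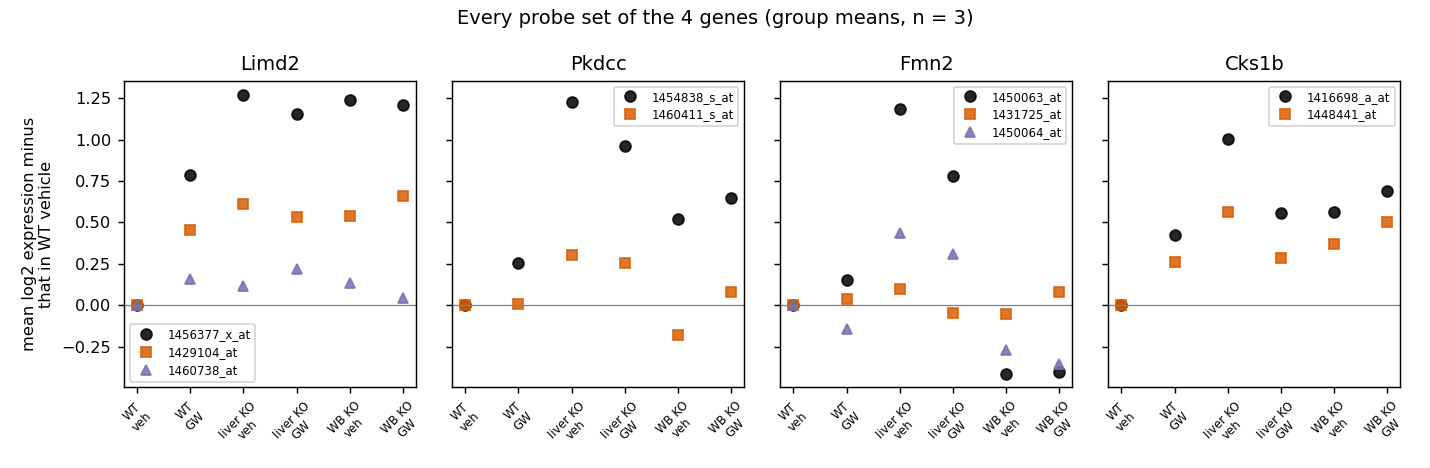
Group means of all 10 probe sets (n = 3 arrays per group), as log2 expression minus that of the same probe set in WT with vehicle on the y axis, by group on the x axis; black circles are the probe sets used for each gene. In the knockout groups, the second probe sets of Limd2 and Cks1b (squares) and of Fmn2 (triangles) lay on the same side of 0 as the first with smaller differences, and that of Pkdcc was below WT in whole-body KO with vehicle (-0.18).

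The 4 genes did not vary as a unit. Over the 18 arrays Pearson's r was 0.66 between Limd2 and Pkdcc, 0.66 between Limd2 and Cks1b and 0.68 between Pkdcc and Cks1b, but 0.14 between Limd2 and Fmn2. Over the 12 arrays that did not choose them, these became 0.54, 0.33, 0.05 and -0.29, and Fmn2 and Cks1b had -0.23. The arrays share genotype groups, so these values only describe the pattern. The genes most like Fmn2 over 18 arrays were Grtp1 (r = 0.89, and 0.91 over the 12), Rnf19a (0.85, 0.72), Klhl2 (0.85, 0.87), Ces4a (0.85, 0.83) and Ifi202b (0.84, 0.86). Those of Limd2 were Ccdc47 (0.85, 0.56), Fbxo22 (0.85, 0.58), Derl1 (0.83, 0.32), Vps4b (0.80, 0.77) and Cyrib (0.80, 0.73). Those of Pkdcc were Snrpe, Pom121, Lats2, Hnrnpf and Mtfr1, with r from 0.84 to 0.87 over 18 arrays and 0.63 to 0.77 over 12. Those of Cks1b were 2700097O09Rik, Kti12, Chchd7, Slirp and Mrps21, from 0.81 to 0.88 and from 0.24 to 0.77.

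The partners of Cks1b were examined next, since its protein acts with SKP2 and cyclin-dependent kinases. Cks2, its paralog, was lower where Cks1b was higher with vehicle. Cks2 measured 8.95, 8.95 and 8.96 in WT with vehicle, 8.05, 8.08 and 8.00 in liver KO with vehicle, and 8.25, 7.79 and 8.49 in whole-body KO with vehicle. It fell by 0.91 ± 0.14 (SE) on the log2 scale in liver KO (limma on all 18 arrays, adjusted p = 0.00284) and by 0.77 ± 0.14 in whole-body KO (adjusted p = 0.00936), without overlap with WT. With GW4064 it measured 8.73, 8.56 and 8.65 in WT, 7.77, 7.82 and 7.67 in liver KO, and 8.54, 8.28 and 8.72 in whole-body KO. The fall in liver KO was again 0.89 (-0.89 ± 0.16, SE; limma, adjusted p = 0.0243), whereas whole-body KO differed from WT by -0.14 (adjusted p = 0.713) and was higher than liver KO by 0.76 (adjusted p = 0.0460). Leaving out each array in turn kept both vehicle calls in 18 of 18 fits, the call in liver KO with GW4064 in 7 of 12 (adjusted p up to 0.120) and that between the knockouts in 3 of 12 (up to 0.144). The second probe set of Cks2 had group means of 8.50 in WT and 7.60 in liver KO with vehicle. The probe set used for Cks2 has the suffix s, so it may be shared with other transcripts.

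**Figure D4:**
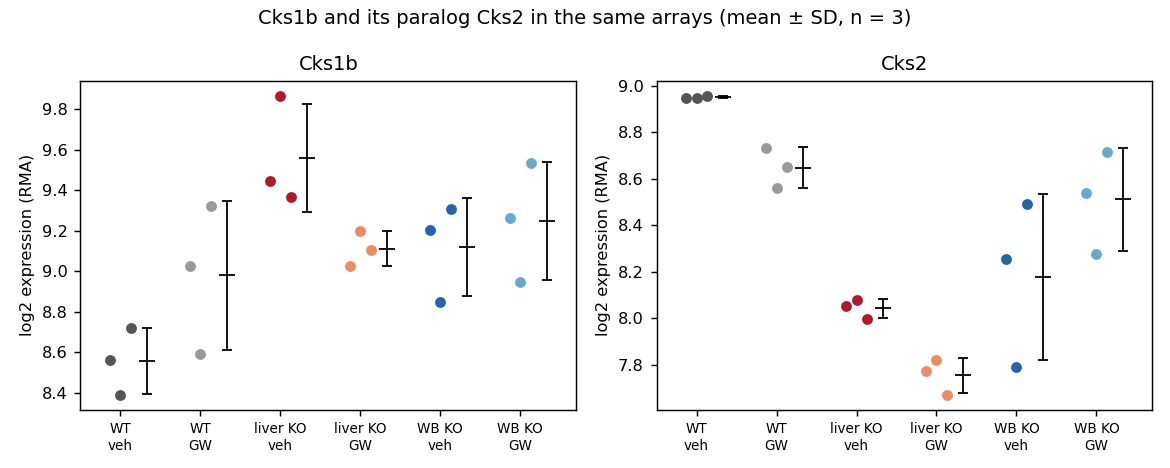
Log2 expression (RMA) of Cks1b and its paralog Cks2 on the y axes, in the 6 groups on the x axes; dots are arrays and bars the mean ± SD (n = 3). With vehicle, Cks1b lay higher and Cks2 lower in both knockouts than in WT, with Cks2 at 8.95 to 8.96 in WT and 8.00 to 8.08 in liver KO. The y axes do not start at 0 and levels of different probe sets are not comparable.

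Of the 14 measured CKS1B, SKP2 and cyclin-dependent kinase partners, only Cks2 passed in liver KO with vehicle, where 0.879% of all genes passed in either direction. In whole-body KO with vehicle, where 1.14% passed, the other call was Cdkn1b, the gene of p27, which rose by 0.37 ± 0.08 (SE; limma, adjusted p = 0.0385), a call kept in 9 of 18 fits with an array left out. Skp2 differed from WT by 0.10 and -0.04 in the knockouts with vehicle (adjusted p = 0.749 and 0.905). The median of the list with vehicle was 0.06 in liver KO and -0.004 in whole-body KO, beside -0.01 for all genes in both. None of 18 proliferation markers such as Mki67, Top2a and the Mcm helicase genes passed in any of the 6 comparisons by limma, which gave 0 to 4 of them an unadjusted p under 0.05, or by the methods' t-test. Their medians were -0.10 in liver KO and -0.02 in whole-body KO with vehicle.

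Of the 11 measured formins and other actin nucleators, none passed in any comparison by limma, with 0 to 5 at an unadjusted p under 0.05, or by the methods' t-test. Fmn1, the closest relative of Fmn2, differed from WT by -0.28 in liver KO and -0.22 in whole-body KO with vehicle (limma, adjusted p = 0.311 and 0.432), and by 0.03 between the knockouts with GW4064 (0.949). Of 19 LIM proteins and members of the integrin-linked kinase complex, Ilk itself differed by -0.03 and -0.02 with vehicle (adjusted p = 0.908 and 0.929). Zyx, which encodes the focal adhesion protein zyxin, was lower than in WT by 0.37 in whole-body KO with vehicle (limma, adjusted p = 0.0385). With GW4064 it was lower than in WT by 0.57 in liver KO (0.0144) and by 0.56 in whole-body KO (0.00516). Fhl1 and Csrp1, LIM proteins of muscle and smooth muscle, were higher than in WT by 0.83 (0.0180) and 0.75 (0.0488) in whole-body KO with GW4064. With each array left out, Zyx kept its call in whole-body KO with GW4064 in 12 of 12 fits, in liver KO with GW4064 in 10 of 12 and in whole-body KO with vehicle in 8 of 18, while Fhl1 kept its in 10 of 12 and Csrp1 in 1 of 12. In liver KO with vehicle the list had a median of -0.03, with no call in limma.

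Of 6 measured secretory pathway kinases related to Pkdcc, none passed against WT with either treatment in limma, and at most 2 in any comparison had an unadjusted p under 0.05. Fam20c, a kinase of secreted proteins, differed by -0.03 in liver KO and -0.14 in whole-body KO with vehicle (limma, adjusted p = 0.952 and 0.585). Fam20b, which phosphorylates xylose in proteoglycan linkers, was lower in whole-body KO than in liver KO with GW4064 by 0.48 on the log2 scale (log2 -0.48 ± 0.09, SE; limma, adjusted p = 0.0384), a call kept in 4 of 12 fits with an array left out. Of 8 measured genes from FXR itself to its named targets, Nr1h4 fell by 4.61 to 4.89 on the log2 scale over the 4 comparisons of a knockout with WT. The others passed only in whole-body KO against WT with GW4064. Cyp7a1 and Cyp8b1, enzymes of bile acid synthesis, were higher by 3.82 and 2.81 (limma, adjusted p = 0.0232 and 0.00874). Nr0b2, the repressor SHP, was lower by 2.20 (0.00945) and Abcb11, the bile salt export pump, by 0.83 (0.0182). With an array left out, Cyp7a1 kept its call in 9 of 12 fits and these others in 12 of 12. From vehicle to GW4064, the WT mean of Cyp7a1 went from 10.60 to 7.73, with GW4064 arrays at 5.82, 7.18 and 10.19. The WT mean went from 11.89 to 9.46 for Cyp8b1 and from 7.97 to 9.82 for Nr0b2. In liver KO these means were 10.93 and 9.95 for Cyp7a1, 12.00 and 11.13 for Cyp8b1, and 7.92 and 8.83 for Nr0b2. These liver KO changes had the directions of those in WT and were not tested. In whole-body KO the means were 11.22 and 11.54 for Cyp7a1, 12.61 and 12.27 for Cyp8b1, and 8.36 and 7.62 for Nr0b2.

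The measured genes on each side of the members on their chromosomes, 5 each way in the RefSeq order, were then compared. None of the 10 around Limd2 or the 10 around Pkdcc passed in any comparison in limma, with at most 3 and 1 at an unadjusted p under 0.05, including Map3k3 and Strada, the nearest to Limd2. Ccdc47, 2 places from Limd2 and the gene most like it over 18 arrays, differed from WT by 0.18 in liver KO and 0.15 in whole-body KO with vehicle (limma, adjusted p = 0.245 and 0.311). Around Fmn2, the nearest genes Mptx1 and Rgs7 did not pass, but Ifi202b, an interferon-inducible gene of the HIN200 family 2 places away, did. It measured 3.62, 3.88 and 3.89 in WT with vehicle, 4.64, 4.79 and 4.45 in liver KO with vehicle, and 3.83, 3.91 and 3.82 in whole-body KO with vehicle. Thus Ifi202b was raised in liver KO without overlap (log2 0.83 ± 0.12, SE; limma, adjusted p = 0.00155) and differed by 0.06 in whole-body KO (0.863). With GW4064 it was 0.60 lower in whole-body KO than in liver KO (log2 -0.60 ± 0.11, SE; adjusted p = 0.0312), the comparison in which Fmn2 passed. It is also among the 5 genes most like Fmn2 over the arrays, and whether the pair share a source of variation on the chromosome was not tested. The probe set of Ifi202b has the suffix s and a low mean of 4.06 over the 18 arrays. Mndal, 3 places from Fmn2, went the other way without passing. It differed by -0.83 in liver KO with vehicle (limma, adjusted p = 0.0878) and by 1.11 in whole-body KO against liver KO with GW4064 (0.0529). Of the genes around Fmn2 and Cks1b, at most 5 and 3 had an unadjusted p under 0.05 in a comparison. Kmo, the kynurenine hydroxylase gene 3 places beyond Fmn2, fell by 0.86 in whole-body KO with GW4064 against WT (adjusted p = 0.00265). Of the genes around Cks1b, Pmvk, an enzyme of the mevalonate pathway 4 places away, was higher in whole-body KO than in liver KO with GW4064 by 1.27 (adjusted p = 0.0312). With an array left out, the call of Ifi202b held in 18 of 18 fits with vehicle and 6 of 12 between the knockouts, that of Kmo in 12 of 12 and that of Pmvk in 7 of 12.

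Markers of other liver cells moved with genotype in part. The summed level of 10 stellate and fibroblast markers (log2 of the sum) was 11.03 to 11.31 in WT and 11.10 to 11.33 in liver KO with vehicle, and 11.62 to 11.75 in whole-body KO with vehicle. With GW4064 it was 10.01 to 10.92 in WT, 10.90 to 11.25 in liver KO and 11.67 to 11.99 in whole-body KO. In whole-body KO against WT with GW4064, 6 of the 10 passed in limma: Dcn, Col1a1, Col1a2, Col3a1, Lum and Pdgfrb, against 2.86% of all genes. Pdgfrb also passed in whole-body KO against WT with vehicle (log2 0.72; limma, adjusted p = 0.0423). In the comparison in which Fmn2 passed, whole-body KO against liver KO with GW4064, Col1a2 (log2 1.0; limma, adjusted p = 0.0123) and Pdgfrb (log2 0.88; 0.0335) were higher, against 0.888% of all genes. The 10 Kupffer cell and macrophage markers had no call in any comparison in limma, with at most 3 at an unadjusted p under 0.05, at medians of 0.29 in liver KO and 0.33 in whole-body KO with vehicle, and summed levels of 11.64 to 11.91 in WT, 12.00 to 12.18 in liver KO and 11.75 to 12.32 in whole-body KO. The 7 hepatocyte markers stayed within 16.84 and 16.98 in every array. Neutrophil markers measured 8.94, 7.78 and 7.18 in WT with GW4064, against 7.05 to 7.43 in the whole-body KO GW4064 arrays. Kupffer cell and macrophage markers measured 11.41, 12.40 and 11.29 in the same WT arrays. WT GW4064 replicate 1, which stood apart, gave the neutrophil value of 8.94 and the stellate value of 10.01. In liver KO against WT with GW4064, 10 of 10 endothelial and 10 of 10 stellate markers were higher, at medians of 0.39 and 0.41. None of these passed in limma, and 6 and 4 had an unadjusted p under 0.05. Both whole-body KO groups had the lowest levels of Fmn2 and the highest summed stellate markers. The part of these cell types in the levels of the 4 genes was not tested.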

How the data were processed

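Liver RNA of 18 arrays in 6 groups of 3 was measured. The authors normalized the arrays with RMA, whose version is not given in the sources used here, and deposited log2 expression for 22690 probe sets; these values were used as they stand. The probe sets carry identifiers of an array that reads 3′ ends, although the methods name another design (Mouse Gene ST), so names came from the annotation of the deposited platform (1 symbol for 20393 probe sets, several for 691, none for 1606). A gene with several probe sets was represented by the brightest. No detection call comes with the values, and precision is limited by having 3 arrays a group.

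The members and the lists were chosen with earlier results of these data known. The 6 vehicle arrays of WT and liver KO chose the members, so these were tested on the other 12 arrays only (lmFit and eBayes of limma 3.58.1, R 4.3.3; a mean per group, 8 residual degrees of freedom), and the lists on all 18 for vehicle comparisons (12 degrees of freedom). Two-sided p-values were adjusted over 12394 genes (Benjamini-Hochberg), and 0.05 was the threshold. For their arrays the authors give an unpaired t-test with p under 0.05 and a minimum fold change, and name no adjustment. Here that test, called the methods' t-test, was adjusted in the same way, so its calls are not those of the authors' rule. Named genes are the members, Nr1h4, the 5 genes most correlated with each, up to 4 list members past the threshold by size together with Cks2, Skp2, Cdkn1b, Ilk, Fmn1 and Fam20c, and the neighbours past the threshold with the nearest on each side; markers of 7 cell types were summed per array. Endothelial markers gave 1 call over the 6 comparisons in limma, and hepatocyte, lymphocyte, cholangiocyte and neutrophil markers gave 0, with at most 6, 1, 3, 1 and 2 at an unadjusted p under 0.05 in a comparison. Of all 12394 genes, 616 to 2094 had an unadjusted p under 0.05 in a comparison by limma. Sequences came from RefSeq (GRCm38.p6). Alternatives are in the closing section. The fit was tested on simulated data. Plots were drawn with matplotlib 3.10.9 in Python 3.11.15.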

Additional observations from a re-analysis of the deposited data

Results flagged for a closer look

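The following differed between the 2 knockouts by a direct test with GW4064 (limma on 12 arrays, whole-body KO minus liver KO on the log2 scale). Fmn2 differed by -1.18 ± 0.15 (SE; adjusted p = 0.00481), with 3 of 3 whole-body KO arrays lower. Among listed genes, Fam20b differed by -0.48 ± 0.09 (adjusted p = 0.0384) and Cks2 by 0.76 ± 0.16 (adjusted p = 0.0460). Groups of 3 arrays were not tested for outlying samples.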

How the results depend on the processing

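Fmn2 stayed lower in whole-body KO than in liver KO with GW4064 in all alternatives that tested it, with log2 differences from -1.28 to -0.57, and stayed past the threshold except with the methods' t-test. It could not be tested with the 40% lowest genes left out, since it is one of them, which leaves 0 members called there. By the mean of its probe sets, the description of liver KO against WT with vehicle was 0.66 for Limd2, 0.77 for Pkdcc and 0.57 for Fmn2, and of whole-body KO 0.64 for Limd2 and 0.17 for Pkdcc. The causes of the changes below were not tested, other than fewer or more arrays.

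With GW4064, liver KO against WT called 75 genes, whole-body KO against WT 355 and whole-body KO against liver KO 110. A fit on the compared groups only called 36, 69 and 16, and 1 member (Fmn2) in the first. A fit on all 18 arrays called 131, 575 and 223. The methods' t-test called 5, 1 and 0, and 0 members in the last. Without the 2 arrays that stood apart (added once the data had been seen), the second comparison called 200. The replicate block called 1 member (Fmn2, log2 -0.55, adjusted p = 0.0465) in the second, and changed no other call of a member. Deviations of same-numbered arrays had a mean correlation of 0.04 over 45 pairs of arrays, 13 of them over 0.1, against -0.02 and 12 of 90 for other pairs. Same-numbered pairs were thus over 0.1 more often, and these values do not settle whether the numbers mark a pairing or a batch. The main fits used no block. Leaving out each array in turn gave 22 to 188, 18 to 204 (last) and 171 to 505 (second) genes, 0 to 1 genes for GW4064 in whole-body KO, and 0 to 1 members in the first and in the second and 1 in the last. Lowest and highest counts came without liver KO GW4064 replicate 1 and WT GW4064 replicate 3 (first), WT GW4064 replicates 1 and 3 (second), and liver KO GW4064 replicate 1 and whole-body KO GW4064 replicate 2 (last).

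Of the fixed lists, 2 members were called in liver KO and 4 in whole-body KO with vehicle, 3 and 8 with GW4064. Of all genes, 0.879%, 1.14%, 0.605% and 2.86% passed in these comparisons. The 6 lists held 14, 18, 11, 19, 6 and 8 measured genes, and each of these limma counts includes Nr1h4 itself. The methods' t-test called 1 in each comparison. In liver KO with vehicle that call was in the list of CKS1B, SKP2 and cyclin-dependent kinase partners, and not Nr1h4. With vehicle, liver KO had 5 with array weights and 4 without the 2 arrays, and whole-body KO had 2 with the mean of probe sets and 2 with the replicate block. With GW4064, whole-body KO had 2 in the compared groups only. Leaving out each array gave 2 to 4, 2 to 6, 1 to 5 and 5 to 8 in the same order. The widest moves came without WT GW4064 replicate 1 or 3, liver KO GW4064 replicate 1 and whole-body KO GW4064 replicate 1 with GW4064, and without whole-body KO GW4064 replicate 3 or either WT vehicle replicate 2 or 3 with vehicle, where 7 different single arrays each left 2 calls in whole-body KO.

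Signs turned only for differences near 0. In whole-body KO against liver KO, Limd2 was -0.040 with array weights and -0.093 without the 2 arrays, and Cks1b -0.0048 without them. Cks1b in whole-body KO with GW4064 against vehicle was -0.013 without the 2 arrays. Leaving out single arrays gave -0.062 to 0.30 for Cks1b in liver KO against WT with GW4064, -0.093 to 0.15 for Limd2 and -0.0048 to 0.29 for Cks1b in whole-body KO against liver KO, and -0.17 to 0.067 for Limd2, -0.094 to 0.17 for Fmn2 and -0.013 to 0.28 for Cks1b in GW4064 against vehicle.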
